A study of Mus musculus with 2 samples.

Results

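The cells described here are those to which the authors of a single-cell atlas of the mouse lung assigned no cell type. They were taken as the rows of the deposited cell table whose cell-type entry reads NA, and were split by the fine cluster recorded for each cell. There were 291 such cells among 18397, which is 1.58% of the atlas, and they formed 6 whole clusters, numbered 39, 42, 45, 46, 50 and 51. The other 45 of the 51 fine clusters had received 1 of 17 names, and no cluster mixed named and unnamed cells. The authors named clusters by hand from the expression of marker genes, and the deposited column descriptions say of NA only that the cluster had no unambiguous annotation.

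Lungs came from female BALB/c mice aged 20 weeks on 1 of 2 diets, control (CD) or high-fat (HFD), over 16 weeks of feeding. Fat, protein and carbohydrate supplied 13%, 27% and 60% of the energy in CD, and 60%, 20% and 20% in HFD, and lard was the source of the fat. Each diet was represented by 1 library, with 8793 cells in CD and 9604 cells in HFD, and the number of mice behind a library was not stated. No replicate exists, so no test was run, differences between animals cannot be estimated, and diet cannot be told apart from the preparation of each library. All intervals below are 95% intervals that cover counting error only.

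In droplet sequencing each transcript molecule is tagged with a unique molecular identifier (UMI), so that the UMIs of a barcode count captured molecules and the detected genes count how many different genes those molecules came from. A large or transcriptionally active cell, or a droplet that caught more than 1 cell, holds many UMIs, and a cell that devotes most of its RNA to a few genes shows few genes for its UMIs. The mitochondrial percent is the portion of a cell's UMIs that fell in the 13 protein-coding genes of the mitochondrial genome. These encode subunits of the respiratory chain, such as mt-Nd1, mt-Co1 and mt-Cytb, and of ATP synthase (mt-Atp6 and mt-Atp8). The mitochondrial percent is commonly read as a sign of cell integrity and of respiratory activity. A lung suspension can also hold cells that have no name among the 17, including club and other airway secretory cells, plasma cells, mesothelial cells, platelets, residual erythroid cells and dividing cells of any lineage.

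The unannotated cells contained large and small extremes of the whole atlas. They held 5.66% of all 93150228 UMIs although they were 1.58% of the cells, and every one of the 33 cells with more than 50000 UMIs was unannotated. Cells with the fewest genes were also concentrated among them, since 36 of the 80 cells with fewer than 500 genes were unannotated. The median unannotated cell had 8634 UMIs (7929 to 9912) and 2411 genes, compared to 3439 UMIs (3400 to 3487) and 1445 genes in the median annotated cell. Those medians average over clusters that lay at opposite ends, so the clusters are described one by one below.

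Unannotated cells made up 1.36% of the CD library (120 cells, 1.13 to 1.63) and 1.78% of the HFD library (171 cells, 1.53 to 2.07). The HFD share was thus 1.30 times the CD share (1.03 to 1.66), while the intervals of the shares themselves overlapped. The excess rested on a single cluster, number 45, without which the ratio was 0.923 (0.708 to 1.20). With a minimum of 500 genes per cell the ratio was 1.07 (0.828 to 1.38).

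Cluster 45 held 4 CD cells and 54 HFD cells, so that 93.1% of it (83.3 to 98.1) came from the HFD library. It made up 0.0455% of the CD library (0.0124 to 0.116) and 0.562% of the HFD library (0.423 to 0.733), which is 12.4 times as much (4.56 to 47.0). With a minimum of 500 genes per cell this ratio of shares was 7.35 (2.23 to 38.1). Cluster 45 was the 1 of 6 unannotated clusters whose share intervals were apart, which is 16.7%, against 13 of all 51 clusters, or 25.5%. Cluster 50 leaned the other way, with 16 CD cells and 5 HFD cells. It made up 0.182% of the CD library (0.104 to 0.295) and 0.0521% of the HFD library (0.0169 to 0.121). The ratio of 0.286 (0.0820 to 0.817) excluded 1 although the intervals of the shares overlapped. By this looser criterion 2 of 6 unannotated clusters differed between libraries, or 33.3%, close to the 35.3% found over all 51 clusters.

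The remaining 4 clusters were present in both libraries at shares whose intervals overlapped. Cluster 39, the largest, had 32 CD and 44 HFD cells, a ratio of shares of 1.26 (0.780 to 2.05). Cluster 42 had 30 CD and 36 HFD cells and a ratio of 1.10 (0.658 to 1.85). Cluster 46 had 30 CD and 22 HFD cells and a ratio of 0.671 (0.369 to 1.20). Cluster 51, the smallest of the 51 clusters, had 8 CD and 10 HFD cells and a ratio of 1.14 (0.407 to 3.34). With 18 cells in all, the interval of cluster 51 was the widest of these 4. Small size was common to all of them, since 13 of the 51 clusters held 76 cells or fewer and 6 of these were unannotated. The smallest annotated cluster held 21 cells, as many as cluster 50.

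**Figure D1:**
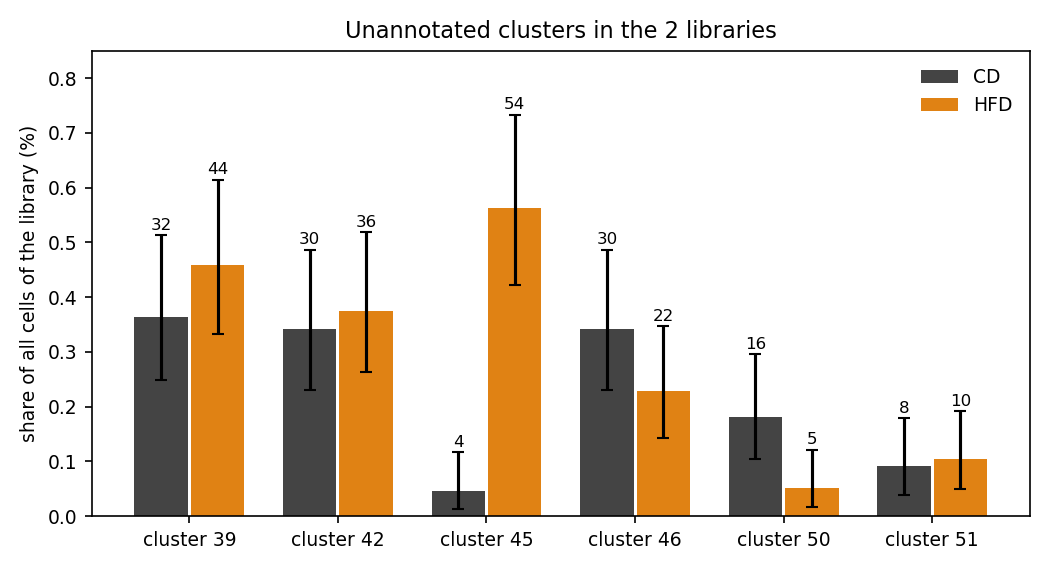
Bars give the share of each unannotated cluster in all cells of a library (%), dark for CD and orange for HFD, with exact 95% intervals and the number of cells above. Cluster 45 has 4 cells in CD and 54 in HFD, cluster 50 has 16 and 5, and the intervals overlap in every cluster but 45.

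Cluster 45 was set apart by how few genes its molecules came from. Its median cell had 6582 UMIs (5079 to 7960), the 16th highest cluster median of 51, but only 441 genes (353 to 605), the lowest cluster median in the atlas. The annotated clusters had medians from 713.5 genes in a fibroblast cluster to 3621 genes in a pericyte cluster. Compared with annotated cells within 25% of its own UMI count, a cluster 45 cell had a median of 0.281 times as many genes (0.205 to 0.370). Of its 58 cells, 50 lay below the 5th percentile of those matched cells, and the ratio ran from 0.0941 to 1.07. Against basophils alone, its nearest type on the map, the ratio was 0.508 (0.277 to 0.955), with enough basophils of similar depth for 13 of the 58 cells. The rank correlation of genes with UMIs across its 58 cells was 0.219, over a 17.4-fold range of UMIs. It was 0.949 across all annotated cells pooled, over a wider 47.9-fold range. Within the other unannotated clusters it ran from 0.783 to 0.990. All are descriptions over cells of the same libraries.

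Within cluster 45 there was a wide range rather than a single level. The 31 cells with fewer than 500 genes, 30 of them from HFD, had a median of 6457 UMIs and 302 genes, and 24 of the 31 had less than 1% mitochondrial UMIs. The 27 cells with at least 500 genes, 24 of them from HFD, had a similar median of 7721 UMIs but 1049 genes, and 7 of them were below 1%. Among the 20 cells with the fewest genes in the whole atlas, none with more than 315 genes, 18 belonged to cluster 45 and 2 to cluster 39, and all 20 came from the HFD library. Of the 20 cells with the fewest genes per UMI, 19 belonged to cluster 45 and 1 to cluster 39.

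The mitochondrial percent of cluster 45 had a median of 0.900% (0.561 to 1.34), the second lowest of the 51 clusters after a neutrophil cluster at 0.520%, and compared to 3.39% in annotated cells. Against annotated cells of matched UMIs the median cluster 45 cell stood at the 2.96th percentile. Cells with fewer genes per UMI had lower mitochondrial percents, with a rank correlation of 0.625 across the 58 cells. This correlation was also positive in every other unannotated cluster, from 0.121 in cluster 46 to 0.523 in cluster 50.

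The 4 CD cells of cluster 45 can be given one by one. They had 1191, 2383, 2703 and 3525 UMIs, with 535, 371, 991 and 538 genes in the same order, and mitochondrial percents of 3.11%, 1.26%, 1.85% and 0.908%. All 4 were below the HFD median of 7329 UMIs. Their median of 536.5 genes lay above the HFD median of 415.5 genes, and their matched gene ratio was 0.566 compared to 0.245 in the 54 HFD cells. Of the CD cells 3 of 4, and of the HFD cells 47 of 54, were below the 5th percentile of matched annotated cells. An interval for a median of 4 cells is not defined, so whether the cluster's cells differ between libraries cannot be told.

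**Figure D2:**
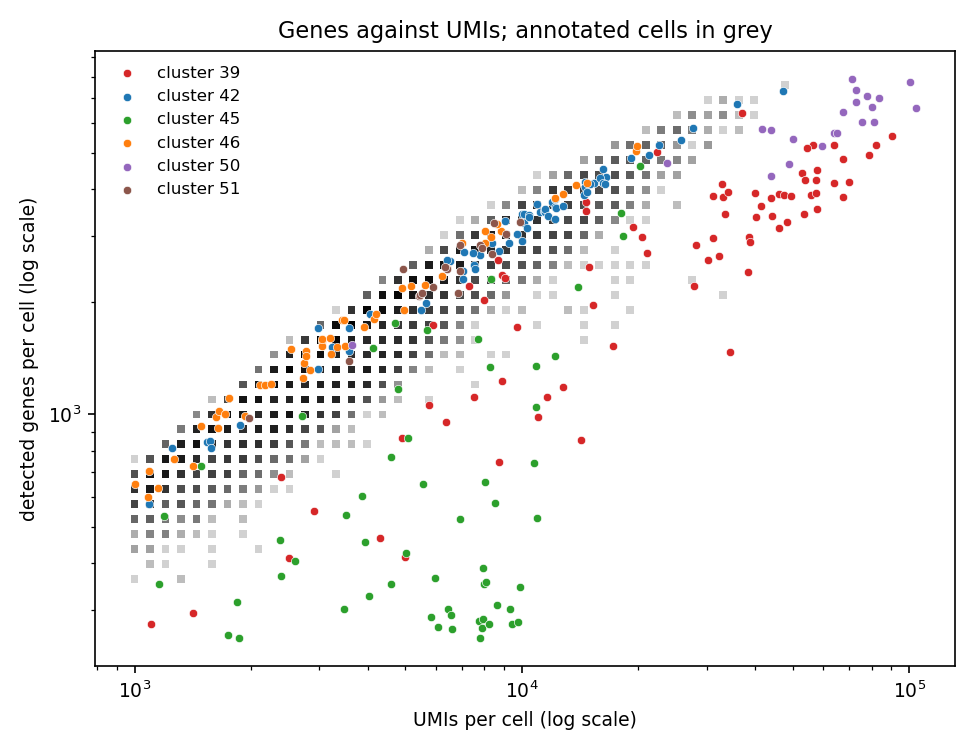
Detected genes are plotted against UMIs per cell, both on log scales. Grey squares are bins of annotated cells, darker where more cells fall, and coloured points are single unannotated cells. Clusters 42, 46 and 51 lie mostly in the upper part of the annotated band, most cells of cluster 45 lie below it, 50 of 58 under the 5th percentile of matched cells, and clusters 39 and 50 extend to the right beyond the deepest annotated cell at 47900 UMIs.

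Clusters 39 and 50 were the deepest clusters of the atlas. Cluster 50 had a median of 67399 UMIs (48958 to 77793) and reached 103960 UMIs, the highest value of any cell. Cluster 39 followed with a median of 31760 UMIs (17151 to 38850) and a range from 1104 to 90183. The highest median among annotated clusters was 12417.5 UMIs, in a cluster of AT2 cells, which make the surfactant of the alveoli. Of the 33 cells above 50000 UMIs, 18 belonged to cluster 39 and 15 to cluster 50, and they came about equally from CD (17 cells) and HFD (16 cells). The 10 deepest cells comprised 7 from cluster 50 and 3 from cluster 39. Among the 50 deepest, 48 were unannotated, of which 1 belonged to cluster 42, and the others were 1 AT2 and 1 endothelial cell.

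The clusters differed in what this depth consisted of. Over the same window of 40000 to 90000 UMIs, 27 cells of cluster 39 had a median of 3898 genes (3784 to 4427), and 17 cells of cluster 50 had a median of 6060 genes (5645 to 6848). The ranges overlapped, from 3147 to 5262 genes in cluster 39 and from 4333 to 7896 genes in cluster 50, while the cells of cluster 50 in this window were also somewhat deeper, with 67399 UMIs compared to 54422. The order was the same in each library, with 3902 genes compared to 6060 in CD and 3848.5 compared to 5862 in HFD, where cluster 50 had only 4 cells in the window.

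Most cells of cluster 39 had few genes for their depth. Its median of 0.0929 genes per UMI (0.0835 to 0.115) was close to the 0.0940 of cluster 50 (0.0838 to 0.109) and the 0.106 of cluster 45 (0.0693 to 0.156), with overlapping intervals, and the order of these 3 differed between the libraries. Genes per UMI fell with UMIs across annotated cells, with a rank correlation of -0.793, so it does not compare clusters of unlike depth. The annotated clusters ranged from 0.240 to 0.575, at median depths of at most 12417.5 UMIs. In cluster 45 the median was 0.261 over 4 CD cells, within that range, and 0.0861 over 54 HFD cells. For 51 of the 76 cells of cluster 39, at least 20 annotated cells of matched UMIs existed. These 51 cells had 0.525 times as many genes as the matched cells (0.460 to 0.613). The ratio was 0.525 in CD and 0.525 in HFD, with single cells from 0.223 to 1.08, and 41 of the 51 cells fell below the 5th percentile. The other 25 cells, at 43936 UMIs or more, had too few annotated cells of similar depth.

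Genes and UMIs rose together more closely within cluster 39 than within cluster 45. The rank correlation in cluster 39 was 0.865 over an 81.7-fold range of UMIs. Its slope on log scales of 0.648 lay within the 0.524 to 0.831 of annotated clusters. The slopes of clusters 45 and 50 were 0.427 and 0.455, below that range. The median mitochondrial percent of cluster 39 was 2.65% (2.35 to 3.07), with a range from 0 to 16.0%. A group of 15 cells with less than 1% mitochondrial UMIs, 13 from HFD and 2 from CD, was shallower, with a median of 11013 UMIs and 953 genes. None of the 4 medians of cluster 39 had intervals apart between CD and HFD, and its median UMIs were 27998.5 in CD and 33614 in HFD.

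Cluster 50 also had the most genes of all clusters, with a median of 6060 (5455 to 6848) and up to 7896. It supplied 17 of the 188 cells with more than 5000 genes in the atlas. Although it was 0.114% of the cells it held 1.43% of the UMIs, and this portion was 2.22% in CD and 0.763% in HFD. Its 5 HFD cells had 63988, 65115, 72860, 80970 and 103960 UMIs, with 5657, 5645, 6848, 6067 and 6597 genes in the same order, and each of them lay above the CD median of 63452.5 UMIs. Their mitochondrial percents were 4.04%, 2.49%, 1.60%, 1.40% and 1.22%, around a median of 1.60% compared to 3.83% in the 16 CD cells. Only 3 of the 21 cells had enough annotated cells of similar depth for a matched gene count, and these 3 had a median ratio of 0.981. The other 18 had fewer than 20 such cells.

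**Figure D3:**
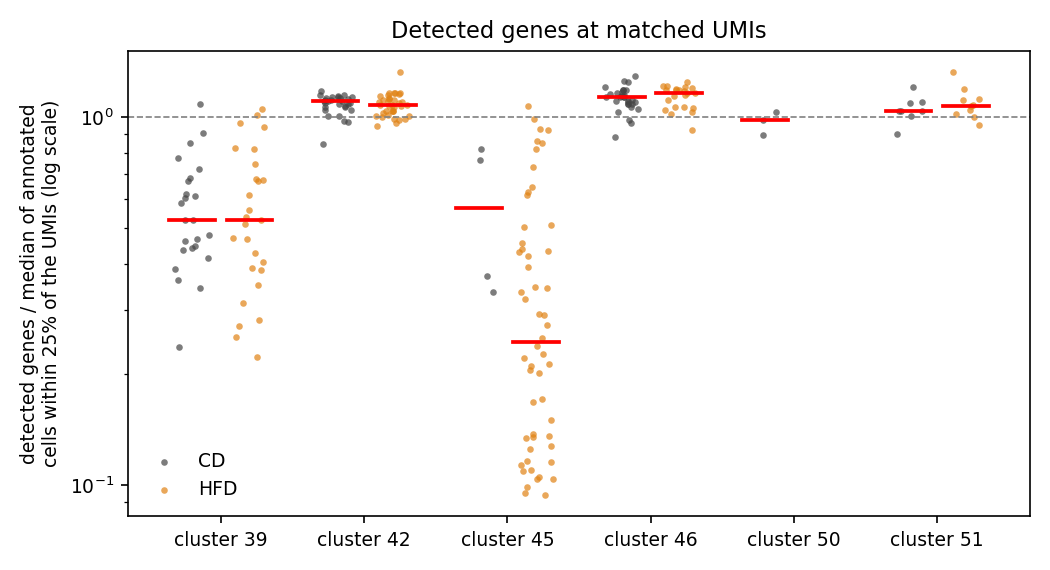
Each point is an unannotated cell with at least 20 annotated cells within 25% of its UMIs. The log-scaled vertical axis gives its detected genes divided by the median of those cells, red lines mark medians, and the dashed line is a ratio of 1. Clusters 42, 46 and 51 sit just above 1 in both libraries, cluster 39 near 0.525 in both, and cluster 45 spreads down to 0.0941.

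Clusters 42, 46 and 51 had median gene counts slightly above those of annotated cells within 25% of their UMIs. Cluster 42 had a median of 10226.5 UMIs (8392 to 11664), the 8th highest, and 3354.5 genes (2731 to 3547), the 5th highest. Its matched gene ratio was 1.09 (1.07 to 1.11) over 65 of 66 cells. Its mitochondrial percent of 4.41% (3.90 to 5.25) was the 6th highest of all clusters, and it was the only unannotated cluster with a median above the 3.39% of annotated cells by more than its interval. CD and HFD medians were 11413.5 and 9495.5 UMIs, with overlapping intervals.

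Cluster 46 was the shallowest of the 6, with a median of 3201.5 UMIs (2731 to 4210) and 1549.5 genes (1376 to 1855), near the annotated medians. Its cells ranged from 1002 to 19850 UMIs. The matched gene ratio was 1.14 (1.11 to 1.17), but 0.971 (0.905 to 1.02) against ciliated cells alone, which could be matched to 8 of the 52 cells. Within the cluster, genes followed UMIs closely, with a rank correlation of 0.990. Its CD and HFD medians were 3276.5 and 3122 UMIs.

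Cluster 51 had a median of 6608 UMIs (5458 to 7893) and 2445.5 genes (2114 to 2831). Its 18 cells were the most uniform, spanning a 4.99-fold range of UMIs from 1978 to 9871. The matched gene ratio was 1.06 (1.02 to 1.11), but 1.01 (0.977 to 1.05) when matched within 10% of the UMIs. The mitochondrial percent was 2.69% (2.43 to 3.43). Its medians were 6138.5 UMIs in CD and 7364 in HFD. For clusters 42, 46 and 51, no median of UMIs, genes, genes per UMI or mitochondrial percent had intervals apart between libraries.

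**Figure D4:**
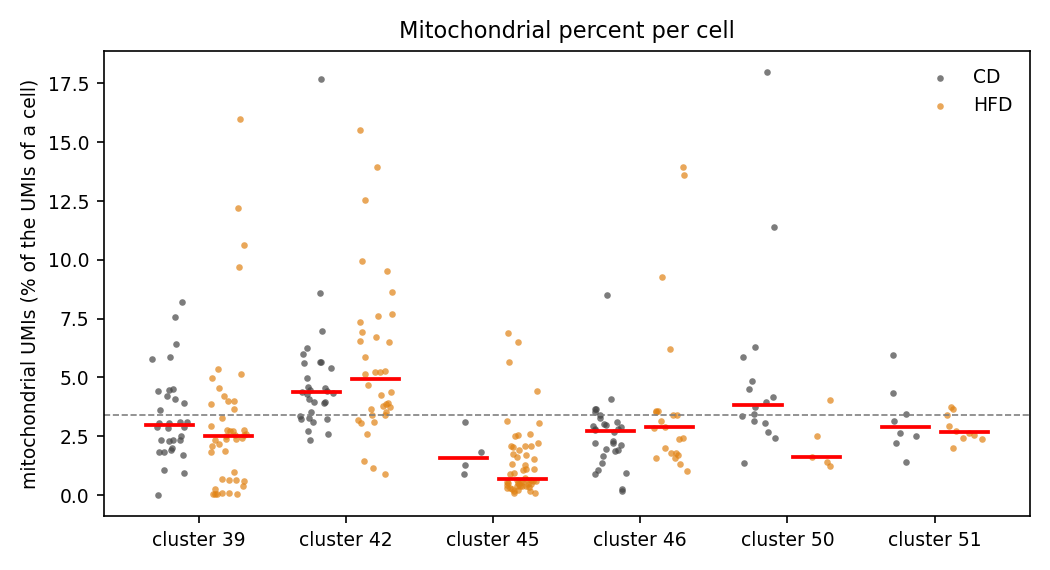
Each point is an unannotated cell, grouped by cluster and library, with the percent of its UMIs from mitochondrial genes on the vertical axis. Red lines mark medians and the dashed line is the annotated median of 3.39%. Cluster 45 is concentrated near 0 in HFD, with a median of 0.699%, and cluster 42 lies highest, with a median of 4.41%.

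Low mitochondrial content was more frequent among unannotated cells (17.5%) than among annotated cells (7.32%). Of 1377 cells below 1% in the atlas, 51 were unannotated, of which 31 belonged to cluster 45, 15 to cluster 39, 4 to cluster 46 and 1 to cluster 42. Cells above 10% made up 3.78% of unannotated and 3.35% of annotated cells. Of 618 such cells, 11 were unannotated, spread over cluster 42 (4 cells), cluster 39 (3 cells), cluster 46 (2 cells) and cluster 50 (2 cells). Cells above 20% had been removed by the authors, so that no cell beyond this limit is in the data.

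In the UMAP plane, a 2-dimensional map in which cells of similar expression are drawn close together, each of the 6 clusters was narrow compared to its distance from the others. The authors had clustered the cells in this plane, so that position helped make the clusters and is given as a description only. Distances are in arbitrary map units and long distances carry little meaning. The median distance from a member to the nearest cell of any other cluster was 22.7 times the cluster's own radius in cluster 39, 25.2 times in cluster 46 and 51.9 times in cluster 50. It was 115 times in cluster 42, 179 times in cluster 45 and 619 times in cluster 51. The middle value of the annotated clusters was 2.00, and their highest was 639. The gaps themselves were not all wide, ranking from 4th (cluster 42) to 35th (cluster 50) of 51.

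Clusters 39, 46 and 50 lay together beside the ciliated cells, the airway cells whose beating cilia move mucus. The 15 nearest annotated cells of each of their members were all ciliated. The closest cluster to both 46 and 50 was cluster 39 rather than the ciliated cluster, and the closest to 39 was 50, at a gap of 0.0525. The 83 ciliated cells had a median of 10508 UMIs, 3616 genes and 5.49% mitochondrial UMIs. Relative to them, median UMIs were 3.02 times as high in cluster 39 (1.36 to 3.99), 6.41 times as high in cluster 50 (3.88 to 7.98) and 0.305 times as high in cluster 46 (0.216 to 0.432). Genes were 0.848 times as many in cluster 39 (0.616 to 1.04) and 1.68 times as many in cluster 50 (1.36 to 1.98). The mitochondrial percent was 0.483 times that of ciliated cells in cluster 39 and 0.506 times in cluster 46, while the ratio of 0.626 in cluster 50 had an interval that included 1 (0.382 to 1.08). These neighbours on the map therefore lay on both sides of the ciliated cells in depth.

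Cluster 45 lay nearest the basophils, rare granulocytes of allergic and type 2 responses, which supplied 97.7% of its nearest annotated cells, with pericytes supplying the other 2.30%. The gap of 0.226 was the 5th widest of all clusters. The 62 basophils were split nearly evenly between the libraries, with 29 in CD and 33 in HFD, unlike the 4 and 54 cells of cluster 45. Cluster 45 had 1.86 times the basophils' median UMIs (1.27 to 2.43) but 0.370 times their median of 1191.5 genes (0.280 to 0.545). Basophils were also low in mitochondrial UMIs, with a median of 1.18%, and the ratio of cluster 45 to them was 0.761, with an interval that included 1 (0.374 to 1.38).

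Cluster 51 lay nearest natural killer (NK) cells, the cytotoxic innate lymphocytes, in all 15 neighbours of every member, but the ciliated cells were closer when types were placed by their median position (0.145 compared to 0.156). Its median UMIs were 2.78 times those of NK cells (2.22 to 3.43), and it had 2.09 times as many genes. Cluster 42 lay nearest a fibroblast cluster, number 26, by single cells at a gap of 0.244, but nearest the monocytes by median position (0.298). Its median UMIs were 2.31 times those of all fibroblasts (1.82 to 2.75) and 1.64 times those of cluster 26 (1.28 to 2.07). For clusters 42 and 51 the nearest type therefore depended on how distance was taken.

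**Figure D5:**
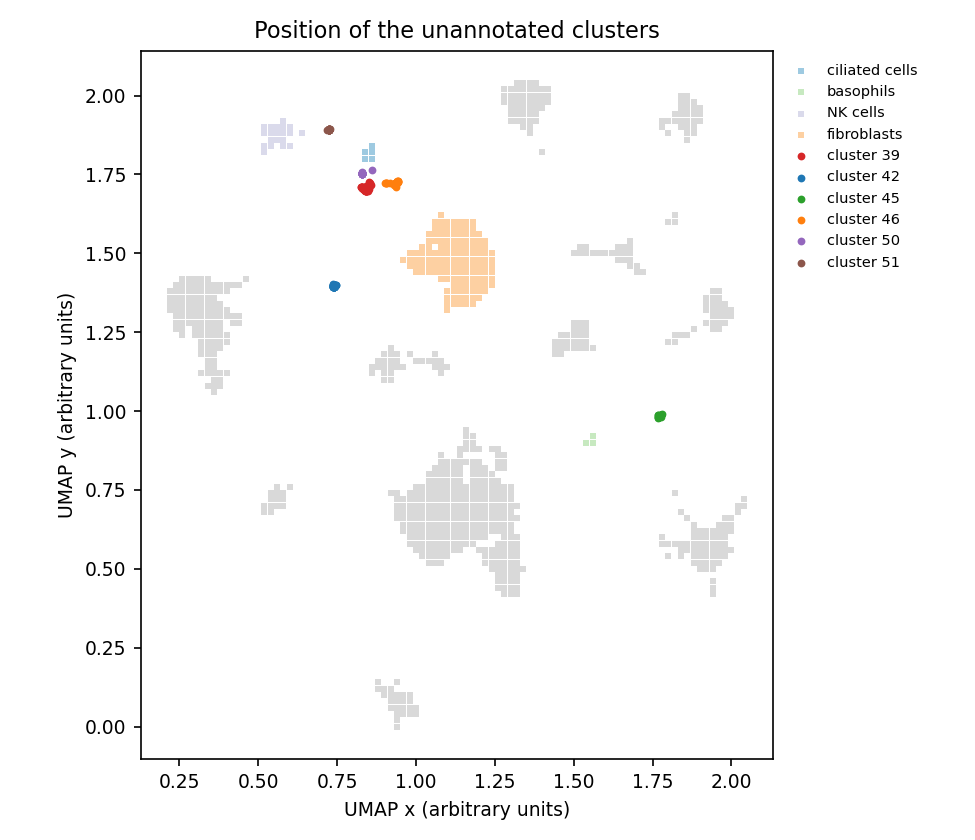
UMAP positions in arbitrary units. Grey bins are annotated cells, pale colours mark ciliated cells, basophils, NK cells and fibroblasts, and saturated points are the 6 unannotated clusters. Clusters 39, 46 and 50 sit beside the ciliated cells, cluster 51 between these and the NK cells, cluster 42 to the left of the fibroblasts and cluster 45 alone to the right of the basophils.

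No cluster could be matched to a cell type by its genes, because values of single genes per cell were not analysed here. What the deposited gene table does give is a flag for the 1000 highly variable genes, 5.19% of the 19278 listed, from which the map was built. A list of 22 markers of 8 kinds of cell with no name among the 17 was looked up, and all 22 were listed. Of these, 17 were flagged as highly variable. They included Scgb1a1, the main secretory protein of club cells, Jchain and Mzb1 of antibody-secreting plasma cells, Hba-a1 and Hbb-bs, which encode haemoglobin chains, Pf4 of platelets and Msln of the mesothelium. Muc5b, Bpifb1, Xbp1, Wt1 and Mki67 were not flagged. Mki67 is marked as 1 of 94 cell-cycle genes, of which 0 were flagged as highly variable. The authors excluded cell-cycle genes before choosing the 1000, so their missing flags carry no information on dividing cells. The flag is a property of the gene over all cells. It does not say which cluster the transcripts came from, or whether that cluster was a named one. Of the 22 markers, 16 were added to the list after the gene table had been seen.

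A barcode found in both libraries can arise by chance from a finite pool. There were 27 such barcodes, and 1 of them belonged to an unannotated cell, a cluster 39 cell of the CD library with 69907 UMIs and 4194 genes, whose HFD partner was a monocyte with 3733 UMIs. No doublet removal was stated, and whether cells of clusters 39 and 50 are doublets was not tested.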

How the data were processed

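Whole-lung suspensions of 1 CD and 1 HFD library were sequenced by droplet capture; the labels name a kit for the 3' end and the study's methods one for the 5' end. Reads were processed by the authors with Cell Ranger (GRCm38.p6, mm10), and Seurat 4.1.0 is named in the submitters' processing notes. The authors stated minimums of 500 UMIs and 250 genes and a maximum of 20% mitochondrial UMIs, but the lowest deposited cell had 1000 UMIs. Clusters were named by hand from marker expression. The deposited table gives each cell's UMI and gene counts, not normalised, and its mitochondrial percent. UMAP coordinates are deposited as scores in arbitrary units.

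The members and lists were chosen with earlier results of these data known. All 6 clusters are named by number, each with its nearest annotated type and fine cluster; values of single genes were not used here. Shares were given exact (Clopper-Pearson) intervals, ratios of shares conditional exact binomial intervals, and medians order-statistic intervals, not defined below 6 cells. Ratios of medians took the outer bounds of both intervals. Each cell's genes were divided by the median of annotated cells within 25% of its UMIs where at least 20 existed. Depth was 42470977 UMIs in CD and 50679251 in HFD. UMIs and genes were not thinned to a common depth, which needs the values of single genes. Alternatives were limits on UMIs, genes and mitochondrial percent, narrower matching, other neighbour counts and each library alone; leaving out shared barcodes and each cluster in turn was added after seeing the data. The intervals of ratios of shares and of medians were tested on simulated data, and the other calculations were not. Software versions were scipy 1.17.1, numpy 2.4.6 and pandas 2.3.3 under Python 3.11.15, with matplotlib 3.10.9 for plots. One further marker gene is not reported here and enters none of the counts.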

Additional observations from a re-analysis of the deposited data

Results flagged for a closer look

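Clusters 45 and 50 differed between the libraries in opposite directions. The HFD share divided by the CD share was 12.4 in cluster 45 (4 CD and 54 HFD cells). With a minimum of 500 genes per cell it was 7.35. In cluster 50 (16 CD and 5 HFD cells) the ratio was 0.286, and the share intervals overlapped. Ratio intervals excluded 1 in 2 of the 6 unannotated clusters (33.3%) and in 18 of all 51 clusters (35.3%). The difference between these ratios was not tested, since each diet had 1 library, and the part played by diet, animal and library preparation cannot be told apart. Both parts of cluster 45 came mostly from HFD, with 30 of its 31 cells with fewer than 500 genes and 24 of its 27 other cells. Over the whole cluster the HFD portion was 93.1% (83.3 to 98.1).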

How the results depend on the processing

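No paired analysis was possible because neither library had a replicate. The HFD to CD ratio of all unannotated cells fell to 0.923 without cluster 45, and its interval included 1 at 1.24 with a minimum of 2000 UMIs, 1.07 with a minimum of 500 genes and 1.32 without cluster 39. The ratio of cluster 50 was 0 without the 1% of cells with the most UMIs, which left 1 CD cell and no HFD cell. Detected genes over matched cells were 1.04 for cluster 42, 1.10 for cluster 46 and 1.01 for cluster 51 within 10% of the UMIs; among cells of the nearest type alone they were 1.07 for cluster 42, 0.508 for cluster 45 (13 of 58 cells) and 0.971 for cluster 46 (8 of 52 cells). For cluster 50 the matching alternatives were not run, as 3 of 21 cells had references. Cells of cluster 42 placed nearest fibroblasts fell to 0% by median positions of types and 10.6% by those of fine clusters, and cells of cluster 51 placed nearest NK cells to 0% by both. Cells of cluster 45 placed nearest basophils went from 98.3% to 100% with 50 neighbours, with the same library alone and by both kinds of median position. Median UMIs of cluster 42 were 1.64 times those of its nearest fine cluster. The causes were not tested. Of 111 alternatives for shares, matched genes, positions and depth ratios, the other 91 were classed as unchanged. A ratio of shares whose interval came to include 1 was classed as changed, even within the reported interval. For medians 113 of 120 alternatives stayed within the interval of the value reported, and the remaining 7 concerned clusters 45 and 50. With at least 500 genes, cluster 45 had medians of 1049 genes, 0.165 genes per UMI and 1.76% mitochondrial UMIs. Its 4 CD cells alone had medians of 2543 UMIs, 0.261 genes per UMI and 1.55% mitochondrial UMIs. The HFD cells of cluster 50 alone had a median of 1.60% mitochondrial UMIs. The ratio of cluster 45 ran from 7.35 with a minimum of 500 genes to 14.8 with a minimum of 2000 UMIs.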
